A study of Mus musculus with 8 samples.

Results

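The data concern 10 transcription factor genes of the naive pluripotent state, namely Esrrb, Klf2, Klf4, Klf5, Tbx3, Tfcp2l1, Prdm14, Nr5a2, Nr0b1 and Zfp42. They were taken by gene symbol from tables that hold 21988 named gene units, of which 11889 were expressed highly enough to test (1 FPKM or more in 2 or more libraries). FPKM counts fragments scaled to transcript length and to the size of the library, so levels can be set side by side between genes. Each of the 10 genes had an entry of its own in all 8 libraries, and all 10 passed that filter.

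RNA-seq was done on mouse pluripotent stem cells in 4 groups of 2 libraries. CDGC1 and CDGC6 are lines derived from nascent teratoma cells in the testis of newborn Dnd1-deficient mice, of strain 129Sv/Dnd1ter/ter/Oct4deltaPE-GFP and genotype Dnd1ter/ter, at passages 15-18. The control is the embryonic stem (ES) cell line E14tg2a, of strain 129/Ola and genotype WT, at passages 10-12. The Dnd1-KD cells carry a knockdown of Dnd1, an RNA-binding protein of germ cells, and have the same strain, genotype label and passages as the control. All 4 groups were kept in DMEM with serum and LIF. Each derived line is a single line, and its origin, strain, genotype and passage differ from the control all at once and cannot be told apart. The labels do not say whether replicate libraries are separate cultures, so p-values measure no more than how far replicate libraries lie apart, which may be technical. In bulk RNA, fewer cells expressing a gene and less of its RNA per cell cannot be told apart.

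Mouse ES cells in serum and LIF are held in a self-renewing state that resembles the epiblast before implantation. LIF acts through STAT3 and the naive factors downstream of it, among them Klf4 and Tfcp2l1, which hold up each other's expression together with Oct4 (Pou5f1), Sox2 and Nanog. When cells move towards the primed state of the epiblast after implantation, the naive factors are shut off while Pou5f1 and Sox2 stay on and genes such as Fgf5, Otx2 and Zic2 come on.

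The 10 genes lie on 7 chromosomes in mm10 with the gene models of GENCODE vM21. Esrrb spans chr12:86361117-86521628, Klf2 chr8:72319033-72321656, Klf5 chr14:99298691-99315036, Tbx3 chr5:119670669-119684724, Tfcp2l1 chr1:118627945-118685168 and Nr0b1 chrX:86191764-86195947, all on the plus strand. Klf4 spans chr4:55527143-55532466, Prdm14 chr1:13113457-13127163, Nr5a2 chr1:136842571-136960448 and Zfp42 chr8:43295063-43306980, all on the minus strand. The library kit does not mark strand. Tbx3 shares 115 exonic bases with the antisense gene Tbx3os1, and Tfcp2l1 shares 130 with other annotated genes, so a part of their fragments cannot be assigned with certainty.

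Promoter sequence from RefSeq (GRCm38.p6) was matched by symbol for 7 of the 10 genes, in 9 windows of 250 bases before to 50 bases after a start site. The 4 shown are those of the genes with the largest losses in CDGC1 (Zfp42, Esrrb and Nr0b1) and of Klf4. Each is the 250 bases before the start site, 5′ to 3′ on the gene's strand, and capitals mark every match, on either strand, to the 12 short motifs searched.
Zfp42, chr8:43307010-43307259, minus strand: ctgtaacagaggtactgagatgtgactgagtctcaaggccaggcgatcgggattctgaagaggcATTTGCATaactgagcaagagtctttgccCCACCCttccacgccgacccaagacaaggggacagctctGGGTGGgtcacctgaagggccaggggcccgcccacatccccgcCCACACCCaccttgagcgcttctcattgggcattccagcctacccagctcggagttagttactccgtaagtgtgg
Esrrb, chr12:86360867-86361116, plus strand: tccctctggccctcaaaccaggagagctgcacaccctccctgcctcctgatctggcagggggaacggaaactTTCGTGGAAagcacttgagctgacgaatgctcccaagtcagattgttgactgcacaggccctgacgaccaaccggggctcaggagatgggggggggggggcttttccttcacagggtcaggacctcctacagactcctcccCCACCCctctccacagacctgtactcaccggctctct
Nr0b1, chrX:86191525-86191774, plus strand: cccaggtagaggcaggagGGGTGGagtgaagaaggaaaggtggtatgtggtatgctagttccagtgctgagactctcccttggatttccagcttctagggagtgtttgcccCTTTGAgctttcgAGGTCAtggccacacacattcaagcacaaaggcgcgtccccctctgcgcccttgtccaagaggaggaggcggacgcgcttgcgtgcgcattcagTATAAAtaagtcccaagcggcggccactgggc
Klf4, chr4:55532476-55532725, minus strand: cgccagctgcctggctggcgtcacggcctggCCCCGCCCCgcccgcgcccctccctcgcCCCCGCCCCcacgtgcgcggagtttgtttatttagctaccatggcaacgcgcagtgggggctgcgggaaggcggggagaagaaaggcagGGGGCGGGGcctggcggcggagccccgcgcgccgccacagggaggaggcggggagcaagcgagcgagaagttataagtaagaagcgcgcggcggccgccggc
In the Zfp42 promoter the capitals hold the reverse complement of the octamer ATGCAAAT, read by Oct4, at 186 bases before the start, which 1.74% of all 32851 windows contain. Further down are the KLF box GGGTGTGG, present in 3.56% of all windows, and matches to the CACCC box CCACCC. The Klf4 promoter holds 3 GC boxes GGGGCGGGG, a sequence bound by KLF and SP factors that 11.4% of windows contain, and among the other windows of these genes only that of Klf2 holds it. Capitals in Nr0b1 mark CCACCC, the TCF sequence CTTTGA (16% of windows), the nuclear receptor core sequence AGGTCA (16.3%) and a TATA box TATAAA (13.6%), and those in Esrrb mark a STAT sequence TTCNNNGAA (8.3%) and CCACCC. The CACCC box was found in 6 of the 9 windows of these genes, against 31.5% of all windows. The longer ESRRB and NR5A2 site TCAAGGTCA, which contains that core, the T-box sequence AGGTGTGA, the PRDM14 sequence GGTCTCTAA and the TFCP2L1 site (a pair of CCAG separated by any 6 bases) had no match in the 9 windows. A match describes letters in the window only.

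Fragments behind the named entries, as implied by the intervals in the files, summed to 10.3 M to 17.3 M per library, and no counts are in the files. ES cell markers fixed in a list of 7 summed to 1475 and 1505 FPKM in CDGC1, 1777 and 2041 in CDGC6, 1615 and 1608 in control, and 961.1 and 809.9 in Dnd1-KD, with Fut4 listed at 0 in both CDGC1 libraries. The sum of 9 fibroblast or feeder markers was 36.3 to 38.6 FPKM in CDGC1, 26.3 to 34.2 in CDGC6, 8.40 to 9.26 in control and 12.3 to 12.7 in Dnd1-KD. The 9 extraembryonic endoderm markers summed to 11.9 and 47.6 FPKM in CDGC1, 5.61 to 9.80 in CDGC6, 3.74 to 3.84 in control and 10.6 to 11.2 in Dnd1-KD, with Ttr listed at 0 in all 8 libraries. Most of the difference between the CDGC1 libraries is Foxa2, at 8.15 and 38.6 FPKM. The 8 trophoblast markers summed to 23.2 to 25.9 FPKM in the derived lines, 35.95 and 35.04 in control and 41.82 and 34.65 in Dnd1-KD, with Tpbpa listed at 0 in all 8 libraries. In Dnd1-KD 3 of the 6 tested were called lower (Cdx2, Tfap2c and Ascl2) and 2 higher (Gata3 and Hand1). Over all tested genes these shares were 15.5% and 20.6%. Germ cell markers (7, counting the joint Dnd1 and Hars entry) summed to 73.6 to 97.5 FPKM over the 8 libraries, neural markers (5) to 56.8 to 63.7 and Sertoli and Leydig cell markers (7, counting the joint Insl3 and Jak3 entry) to 8.51 to 13.3. These sums hide opposite changes in CDGC1 as well. Of the 6 germ cell units tested 5 fell there, where 26.9% of all tested genes were called lower. The 5 include Ddx4, from 15.5 and 15.4 FPKM in control to 0.0137 and 0.0221, and Mael, from 6.53 and 6.61 to a listed 0 in both libraries. The joint Dnd1 and Hars entry stood at 81.4 and 71.5. Of the neural markers Tubb3 fell from 38.2 and 38.2 FPKM to 4.77 and 6.06 and Pax6 fell from 1.91 and 1.91 to a listed 0 in both, while Nes rose to 57.9 and 55.2, by 1.28 in log2(FPKM + 1). Of the 3 Sertoli and Leydig units tested 1 fell, the joint Insl3 and Jak3 entry, and 2 rose. The part of these marker differences in the results that follow was not tested. Dnd1 was given no value of its own here, because symbols joined in any library were merged in all, and Dnd1 is joined with Hars in 1 or more. The knockdown was therefore not checked in the libraries labelled Dnd1-KD.

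All 10 factors were lower in CDGC1 than in control, while in CDGC6 and in Dnd1-KD cells their mean differences from control were all smaller than 1 on the log2 scale. Tests were made with limma on log2(FPKM + 1), and p-values were adjusted over all 11889 tested genes. In CDGC1 10 of 10 fell, where 26.9% of all tested genes were called lower. In Dnd1-KD 5 of 10 fell (Klf4, Klf5, Tfcp2l1, Nr5a2 and Zfp42) and 0 rose, where 15.5% of all tested genes were called lower and 20.6% higher. In CDGC6 1 of 10 fell (Nr5a2), and 0 rose, where 10.1% of all tested genes were called lower and 8.31% higher. At an unadjusted p under 0.05, Dnd1-KD had 7 lower and 0 higher, and CDGC6 had 5 lower and 0 higher. Both libraries lay below both control libraries for 8 of 10 in Dnd1-KD, 7 of 10 in CDGC6 and 10 of 10 in CDGC1, beside 37.3%, 37.3% and 41.5% of all tested genes. The median log2 difference of the 10 from control was -4.01 in CDGC1, -0.37 in CDGC6 and -0.51 in Dnd1-KD, beside medians over all tested genes of -0.03, -0.01 and 0.02. The CDGC1 median depended on the pseudocount, at -5.21 with 0.1 and -2.58 with 5. These comparisons share the same control libraries. CDGC1 was also lower than CDGC6 for 10 of 10, where 24.0% of all tested genes were called lower in that comparison.

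**Figure D1:**
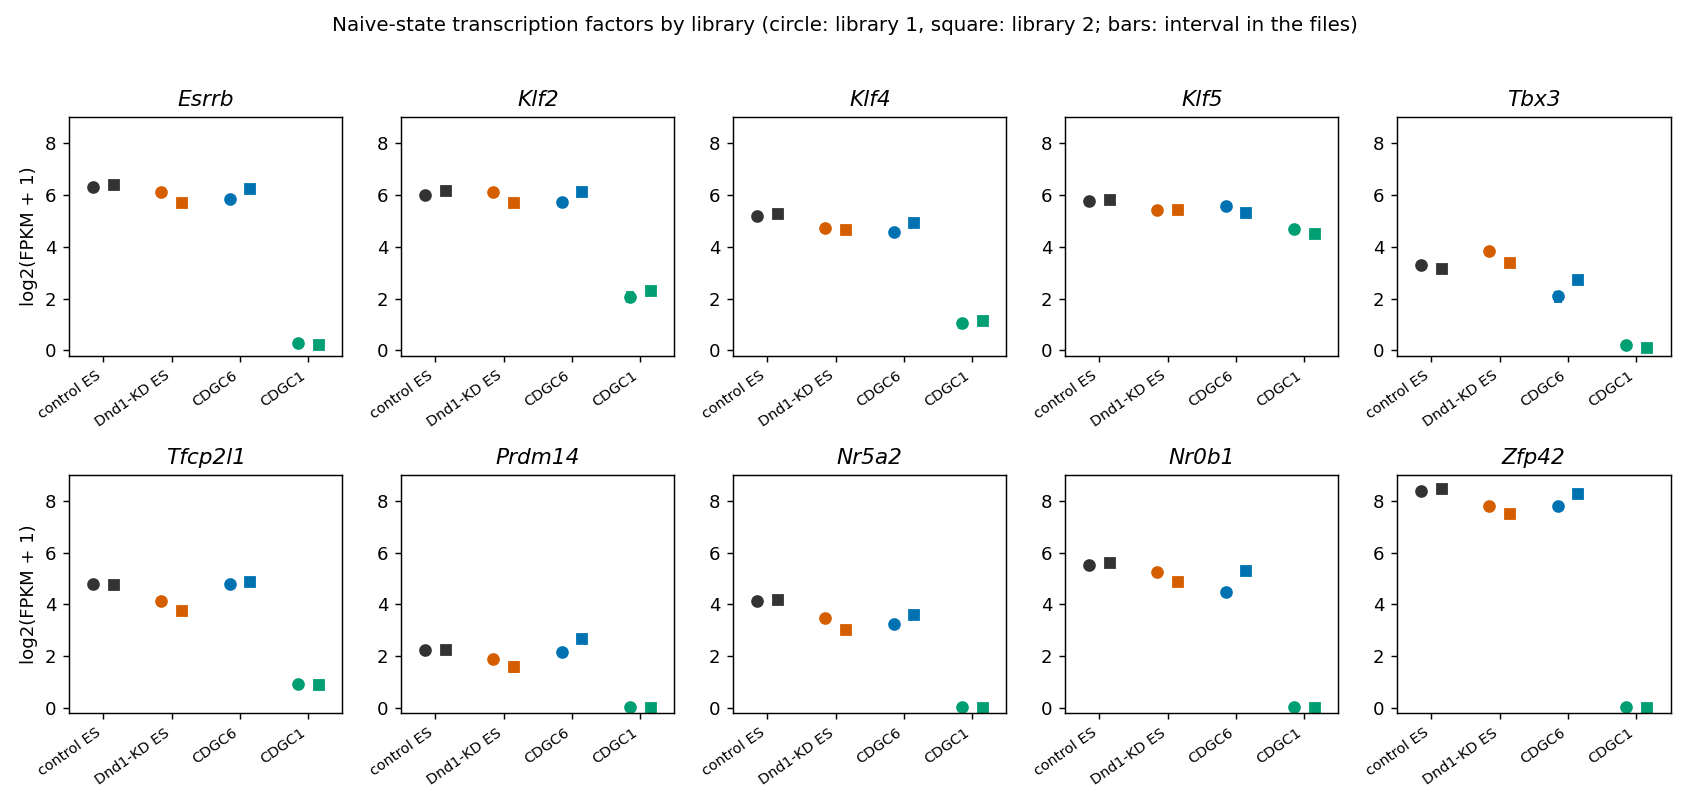
Level of each of the 10 factors as log2(FPKM + 1) in every library, with circles for library 1, squares for library 2 and bars for the interval given in the files (mostly smaller than the symbols). The CDGC1 libraries lie between 0 and 1 for 7 genes, between 1 and 3 for Klf2 and Klf4, and above 4 for Klf5.

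Esrrb, Nr5a2 and Nr0b1 encode nuclear receptors. ESRRB is an orphan receptor that binds many of the same enhancers as Oct4 and Sox2, NR5A2 activates Pou5f1 and Nanog, and NR0B1 (DAX1) is a corepressor without the usual DNA-binding domain. Esrrb stood at 78.6 and 82.9 FPKM in control, 67.8 and 51.2 in Dnd1-KD, 56.2 and 74.6 in CDGC6, and 0.211 and 0.140 in CDGC1. Both Dnd1-KD and both CDGC6 libraries were below both control libraries, yet neither difference passed, at -0.45 ± 0.17 (SE) with an adjusted p of 0.0922 for Dnd1-KD and -0.31 ± 0.17 with 0.253 for CDGC6. The fall in CDGC1 was -6.12 ± 0.17 on the log2 scale, the 11th largest among 11889 genes (adjusted p = 6.97e-06). CDGC1 kept 0.218% of the mean control FPKM of Esrrb.

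Nr5a2 stood at 16.5 and 16.9 FPKM in control, 10.0 and 7.09 in Dnd1-KD, 8.54 and 10.9 in CDGC6, and 0.0307 and 0.00825 in CDGC1. The other 3 groups were all below control without overlap, and Dnd1-KD and CDGC6 overlapped each other. It was the one factor of the 10 called lower in all 3 groups, by -0.90 ± 0.17 in Dnd1-KD (adjusted p = 0.0115), -0.73 ± 0.17 in CDGC6 (0.0372) and -4.11 ± 0.17 in CDGC1 (1.86e-05). The call in CDGC6 did not hold when any 1 CDGC6 or control library was left out, with adjusted p-values from 0.0541 to 0.172, nor with a pseudocount of 0.1 (0.0554). The call in Dnd1-KD was lost without either control library or without Dnd1-KD library 2. Mean FPKM was 51.3% of control in Dnd1-KD and 58.3% in CDGC6. The CDGC1 values rest on at most a few fragments, and both of their intervals start at 0.

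Nr0b1 stood at 44.5 and 47.2 FPKM in control, 36.7 and 27.8 in Dnd1-KD, 21.1 and 37.8 in CDGC6, and 0.0221 and a listed 0 in CDGC1. The CDGC6 libraries lay far apart, and both were below control. The differences of -0.51 ± 0.27 in Dnd1-KD and -0.68 ± 0.27 in CDGC6 did not pass (adjusted p = 0.185 and 0.126). For the CDGC1 library above 0 the file gives an interval from 0 to 0.0662 FPKM, which corresponds to about 1 fragment. CDGC1 passed with an adjusted p of 3.06e-05 on the log2(FPKM + 1) scale, but the size is set by the pseudocount. For the 3 genes with a CDGC1 library at 0 the difference from control with pseudocounts of 0.1, 1 and 5 was -8.70, -5.53 and -3.34 for Nr0b1, -11.6, -8.41 and -6.12 for Zfp42, and -5.16, -2.23 and -0.80 for Prdm14. These are no measure of fold. The CDGC1 differences of Nr5a2, Esrrb and Tbx3 from control also depended on the pseudocount. They were -7.14, -8.21 and -5.27 with 0.1, and -2.11, -4.05 and -1.38 with 5.

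Klf2, Klf4 and Klf5 are Krüppel-like zinc finger factors that bind CACCC and GC boxes and can stand in for one another in ES cells. Klf4 is induced by LIF through STAT3, while Klf2 depends on other inputs. Klf2 stood at 63.6 and 70.3 FPKM in control, 68.4 and 49.9 in Dnd1-KD, 52.1 and 68.1 in CDGC6, and 3.16 and 3.90 in CDGC1. Control, Dnd1-KD and CDGC6 overlapped one another, and the differences from control were -0.19 ± 0.19 in Dnd1-KD (adjusted p = 0.478) and -0.16 ± 0.19 in CDGC6 (0.578). The 95% intervals of these differences were -0.66 to 0.28 and -0.63 to 0.31. Klf2 fell by 3.91 ± 0.19 in CDGC1 (adjusted p = 3.29e-05). In both CDGC6 libraries the tables also hold an unnamed assembled transcript inside the Klf2 gene, at 48.1 and 34.1 FPKM, which no other group has. Its part in the Klf2 value was not tested.

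Klf4 stood at 35.1 and 37.3 FPKM in control, 25.7 and 23.8 in Dnd1-KD, 22.8 and 29.5 in CDGC6, and 1.05 and 1.19 in CDGC1. No library of the other groups reached the control level. Klf4 fell by 0.53 ± 0.13 in Dnd1-KD (adjusted p = 0.0231), and a similar difference in CDGC6, -0.46 ± 0.13, fell just short (0.0547). In CDGC1 it fell by 4.13 ± 0.13 (adjusted p = 9.07e-06). The Dnd1-KD call was lost when any 1 control or Dnd1-KD library was left out, with adjusted p-values from 0.0607 to 0.120.

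Klf5 stood at 53.0 and 55.3 FPKM in control, 41.9 and 41.6 in Dnd1-KD, 46.9 and 38.3 in CDGC6, and 24.4 and 21.4 in CDGC1. CDGC1 kept 42.3% of the mean control FPKM of Klf5, the largest share among the 10 factors, followed by Klf2 at 5.27%. The fall was -1.21 ± 0.11 on the log2 scale (adjusted p = 0.000357) and ranked 925th among the 11889 genes, behind the other factors, the next being Prdm14 at 319th. The place of Prdm14 rests on the pseudocount, as its difference was -0.80 with 5, smaller than the -1.09 of Klf5, and -5.16 with 0.1, where Klf2 (-4.21) came next to Klf5 (-1.24). In Dnd1-KD cells it fell by 0.37 ± 0.11 (adjusted p = 0.0470), a call that did not hold with a pseudocount of 0.1 (0.0504), quantile normalisation (0.0693), no filter on low values (0.0570) or a prior without a trend (0.0549), nor without any 1 control or Dnd1-KD library (0.129 to 0.189). The difference in CDGC6 was -0.35 ± 0.11 (0.0812).

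The make-up of the KLF trio therefore differed in CDGC1. Klf5 held 34.9% and 34.0% of the summed FPKM of Klf2, Klf4 and Klf5 in control, 30.8% and 36.1% in Dnd1-KD, 38.5% and 28.2% in CDGC6, and 85.3% and 80.8% in CDGC1. The sum of the 3 genes was 151.7 and 162.9 FPKM in control and 28.7 and 26.5 in CDGC1. Within CDGC1, Klf5 also made up most of the sum over all 10 factors, which was 30.0 and 27.5 FPKM there and 665.6 and 699.4 in control.

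**Figure D2:**
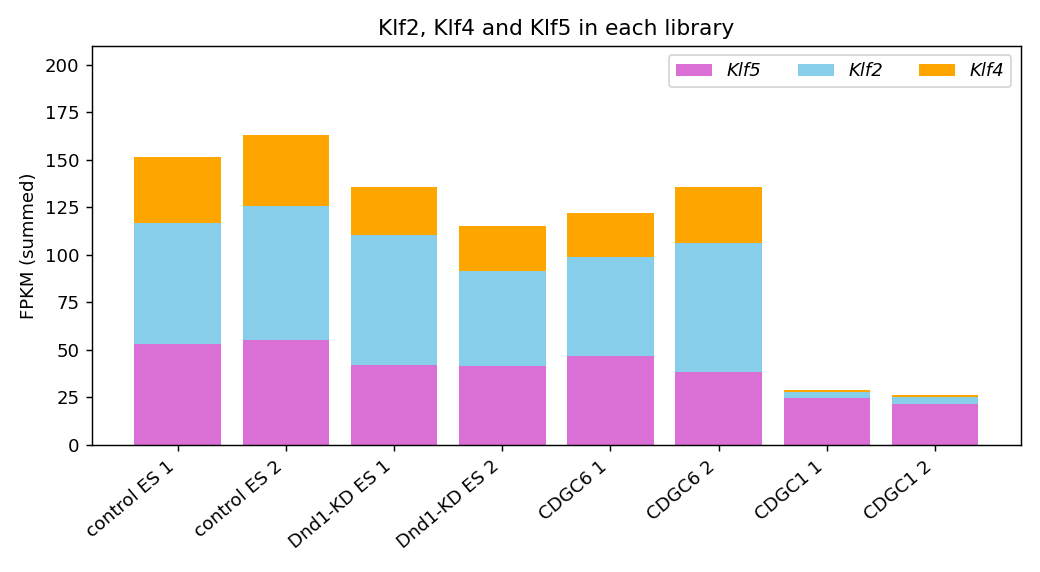
Stacked bars of FPKM of Klf5, Klf2 and Klf4 in each of the 8 libraries. In CDGC1 the bar is 28.7 and 26.5 FPKM high and mostly Klf5, and in the other 6 libraries Klf2 is the largest part and Klf4 the smallest.

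Tbx3 encodes a T-box factor that acts downstream of PI3K signalling in ES cells and is also active in early endoderm. It stood at 8.73 and 7.88 FPKM in control, 13.2 and 9.43 in Dnd1-KD, 3.25 and 5.56 in CDGC6, and 0.169 and 0.0766 in CDGC1. Both Dnd1-KD libraries were above control and both CDGC6 libraries below it. Neither difference from control passed, at 0.39 ± 0.24 in Dnd1-KD (adjusted p = 0.251) and -0.82 ± 0.24 in CDGC6 (0.0610), but the direct comparison did, with CDGC6 lower than Dnd1-KD at a difference of -1.20 ± 0.24 (0.00691). Tbx3 fell by 3.05 ± 0.24 in CDGC1 (0.000172). Of the 9 endoderm genes in the marker list 4 were tested. In Dnd1-KD 3 were called higher (Gata4, Gata6 and Dab2), where 20.6% of all tested genes were, and Foxa2 did not pass (0.751). Gata4 was 1.98 and 2.46 FPKM and Gata6 1.29 and 1.70 in Dnd1-KD, where control had 0.724 and 0.692 of Gata4 and 0.238 and 0.236 of Gata6. In CDGC1, the group lowest in Tbx3, Foxa2 was called higher and Gata4 lower. A link of these genes to Tbx3 was not tested.

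Tfcp2l1 encodes a grainyhead-like factor that is a target of STAT3. It stood at 26.5 and 25.9 FPKM in control, 16.6 and 12.5 in Dnd1-KD, 26.6 and 28.5 in CDGC6, and 0.904 and 0.857 in CDGC1. CDGC6 was at the control level or just above it, and Dnd1-KD was below both. It fell by 0.82 ± 0.13 in Dnd1-KD (adjusted p = 0.00673), and the difference in CDGC6 was 0.07 ± 0.13 (0.749, 95% interval -0.25 to 0.39). The Dnd1-KD call was lost without control library 1. CDGC6 was higher than Dnd1-KD by 0.89 ± 0.13 (0.00247), and the fall in CDGC1 was -3.86 ± 0.13 (1.13e-05).

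Prdm14 encodes a PR domain protein that represses DNA methyltransferase and FGF signalling genes and is needed for germ cell specification. It was the least abundant of the 10 in control, at 3.69 and 3.77 FPKM. Levels were 2.67 and 2.02 FPKM in Dnd1-KD, 3.43 and 5.39 in CDGC6, and 0.0147 and a listed 0 in CDGC1. CDGC6 spanned the control range and Dnd1-KD lay below it. The differences from control were -0.51 ± 0.19 in Dnd1-KD (adjusted p = 0.0792) and 0.17 ± 0.19 in CDGC6 (0.555), and CDGC6 was higher than Dnd1-KD by 0.68 ± 0.19 (0.0239). That last call was lost when CDGC6 library 2 (0.0676) or Dnd1-KD library 2 (0.123) was left out, and in a fit of only the compared groups (0.0624). CDGC1 was called lower than control (0.00023).

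Zfp42 (REX1), a zinc finger gene used as a marker of the naive state, was the most abundant of the 10. It stood at 335 and 352 FPKM in control, 223 and 178 in Dnd1-KD, 223 and 304 in CDGC6, and 0.0220 and a listed 0 in CDGC1. All libraries outside the control lay below both control libraries, and CDGC6 overlapped Dnd1-KD at its lower library. Zfp42 fell by 0.78 ± 0.17 in Dnd1-KD (adjusted p = 0.0157) and in CDGC6 the difference was -0.40 ± 0.17 (0.145). Zfp42 lost the Dnd1-KD call without either control library or without Dnd1-KD library 2. In CDGC1 it had, on this scale, the 3rd largest fall of all 11889 tested genes (adjusted p = 1.84e-06), and the interval of the library above 0 runs from 0 to 0.0660 FPKM, about 1 fragment.

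**Figure D3:**
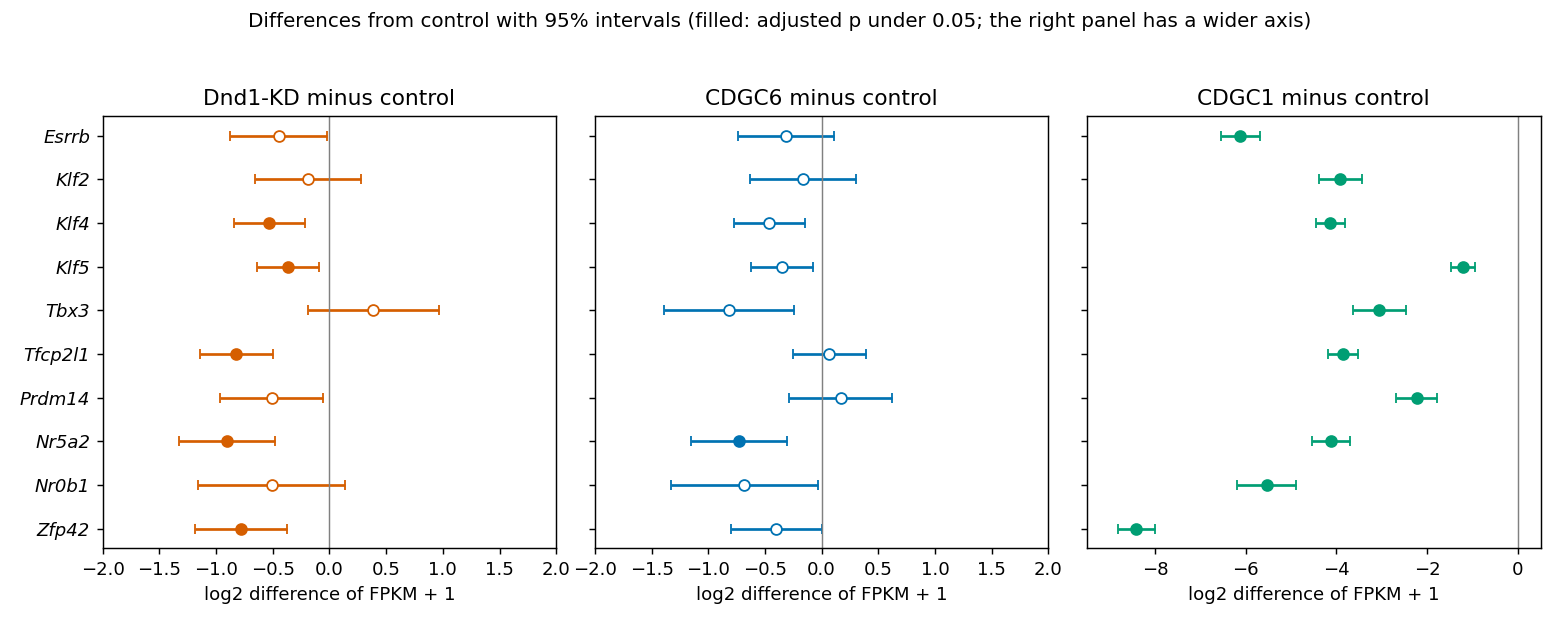
Difference of each factor from control in log2(FPKM + 1) with its 95% interval, filled where the adjusted p was under 0.05, for Dnd1-KD, CDGC6 and CDGC1 (the last on a wider axis). In Dnd1-KD 5 of 10 and in CDGC6 1 of 10 were called lower, while in CDGC1 all 10 were. The CDGC1 points of Zfp42, Nr0b1 and Prdm14 are set by the pseudocount, and those of Nr5a2, Esrrb and Tbx3 also depend strongly on it.

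Ranked by group mean, CDGC1 was the lowest group for each of the 10 factors and differed from the next group in each case (adjusted p from 2.52e-06 for Zfp42 to 0.00108 for Klf5). Against Dnd1-KD it was lower for 10 of 10, where 34.9% of all tested genes were called lower. Control was first for 7 of the 10, Dnd1-KD for Tbx3, and CDGC6 for Tfcp2l1 and Prdm14. The only neighbours above CDGC1 that differed were control over Dnd1-KD for Tfcp2l1 (0.00673) and control over CDGC6 for Nr5a2 (0.0372). Between CDGC6 and Dnd1-KD, 1 of 10 was lower (Tbx3) and 2 of 10 were higher (Tfcp2l1 and Prdm14) in CDGC6, where 29.2% of all tested genes were called lower and 24.2% higher. In control the order of levels was Zfp42, Esrrb, Klf2, Klf5, Nr0b1, Klf4, Tfcp2l1, Nr5a2, Tbx3 and Prdm14, on the FPKM scale, and in CDGC1 it began with Klf5, Klf2 and Klf4.

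The calls in Dnd1-KD and CDGC6 rested on few libraries. Fewer of all tested genes were also called in Dnd1-KD without either control library or without Dnd1-KD library 2. The same held in CDGC6 without any 1 control or CDGC6 library, so lost calls were not particular to the 10 factors. With 1 library left out, log2 differences in Dnd1-KD ranged from -0.58 to -0.48 for Klf4 and -0.40 to -0.34 for Klf5. They were -1.02 to -0.63 for Tfcp2l1, -1.12 to -0.68 for Nr5a2 and -0.94 to -0.62 for Zfp42. Leaving out control library 1 took the Dnd1-KD count from 5 of 10 to 0, control library 2 to 1, Dnd1-KD library 1 to 3 and Dnd1-KD library 2 to 1, whereas without either CDGC6 library it was 7. Leaving out control library 1 or 2 took the CDGC6 count from 1 of 10 to 0, and without CDGC6 library 2 it was 3 (Klf4, Tbx3 and Nr0b1, not Nr5a2). Without CDGC6 library 1 it stayed at 1, but the gene was Klf5 (adjusted p = 0.0450), not Nr5a2. In CDGC1 all 10 factors stayed below control without any 1 of the 8 libraries. The smallest difference, that of Klf5, ranged from -1.3 to -1.12.

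In Dnd1-KD and CDGC6 the 2 libraries of the group also differed from each other across most of the 10 factors. In Dnd1-KD 0 of 10 were higher in library 2 than in library 1, where 41.9% of all tested genes were, with a median of -0.39 in log2(FPKM + 1) beside -0.03 over all tested genes. In CDGC6 9 of 10 were higher in library 2, where 44.0% of all tested genes were, with a median of 0.39 beside -0.03, and only Klf5 went the other way (46.9 and 38.3 FPKM). Of 21 primed or formative genes, 16 were lower in CDGC6 library 2, with a median of -0.24. Fgf8, a growth factor of the primed epiblast, was 43.0 and 22.1 FPKM there, and T, a mesoderm factor, 69.1 and 43.7, both named after their values were seen. In Dnd1-KD, 16 of these 21 genes were lower in library 2 as well (median -0.11), alongside the naive factors. The factors' medians were -0.03 in CDGC1 and 0.07 in control, beside 0.04 and 0.01 over all tested genes. In CDGC1 2 of 10 factors were higher in library 2, where 57.5% of all tested genes were. In control 8 of 10 were, beside 53.4%. Of the 21 primed or formative genes, 17 were higher in CDGC1 library 2 (median 0.24). These are differences between single libraries with no replicate.

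**Figure D4:**
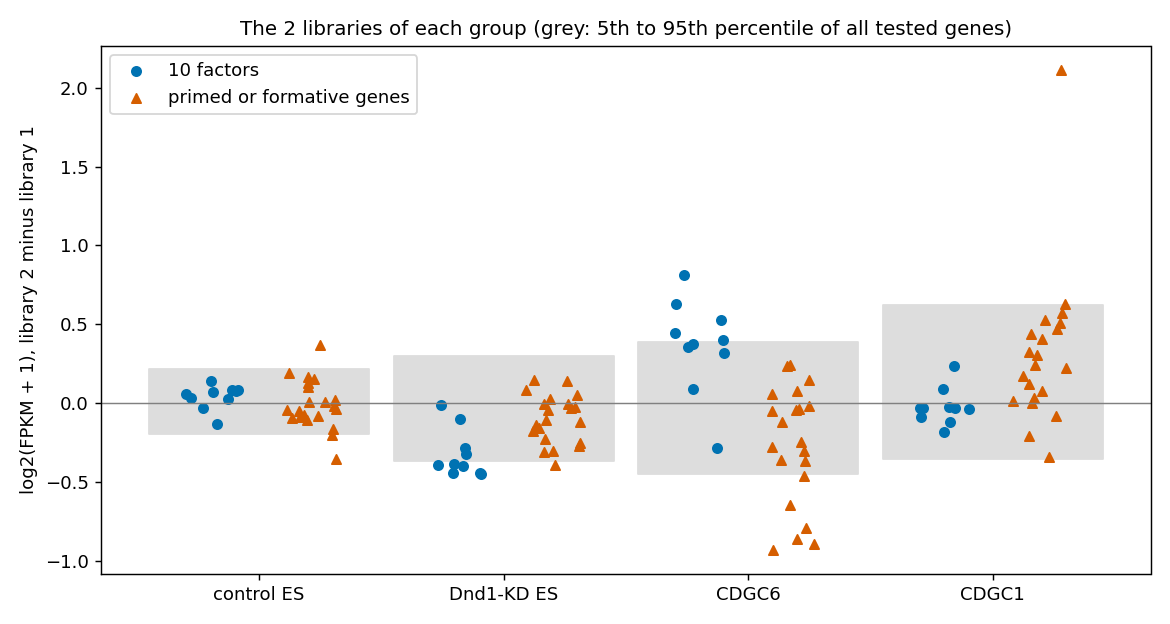
Library 2 minus library 1 in log2(FPKM + 1) for the 10 factors (circles) and 21 primed or formative genes (triangles) in each group, over the range from the 5th to the 95th percentile of all tested genes (grey). In CDGC6 the factors lie above 0 except Klf5 while 16 of 21 primed or formative genes lie below it, and in Dnd1-KD all 10 factors lie below 0.

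The wider naive network was followed in a list of 22 other genes, of which 21 were tested. In CDGC1 17 fell and 1 rose, with a median of -1.61, where 26.9% of all tested genes were called lower and 23.5% higher. Dppa3, a maternal factor that guards methylation marks, was 21.5 and 21.0 FPKM in control and 0.0572 and 0.0923 in CDGC1 (-4.37, adjusted p = 1.84e-06). Jam2, a junction protein, fell by 3.96, and Tdh, a threonine dehydrogenase, from 233.6 and 244.9 FPKM to 0.880 and 0.490. By contrast the core factors Pou5f1, at 944 and 934 FPKM in control and 951 and 1027 in CDGC1, and Nanog, at 134 and 128 in control and 137 and 122 in CDGC1, did not pass, while Sox2 fell by 1.06, from 158 and 167 FPKM to 75.1 and 79.6. These 3 core genes were named after their values were seen.

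In Dnd1-KD 13 of the 21 fell and 2 rose (median -0.41), where 15.5% of all tested genes were called lower and 20.6% higher. Utf1, a chromatin factor, fell by 0.80 and Sox2 by 0.90, and Pou5f1 was 531 and 457 FPKM, a fall of 0.93. In CDGC6 4 of 21 fell and 1 rose (median -0.17), where 10.1% of all tested genes were called lower and 8.31% higher. Dppa3 rose there by 1.29 to 49.9 and 56.7 FPKM, while Ncoa3, a coactivator that partners ESRRB, fell by 0.90, and Lifr, the LIF receptor subunit, by 0.49.

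Of the 21 primed or formative genes, 14 rose and 5 fell in CDGC1 (median 0.90), where 23.5% of all tested genes were called higher and 26.9% lower. Zic2, a zinc finger factor of the primed state, rose from 6.65 and 6.69 FPKM in control to 47.3 and 56.1, and Pou3f1 (OCT6) from 16.3 and 15.4 to 47.0 and 49.5. Lef1, a Wnt effector, fell from 8.54 and 7.50 to 1.20 and 0.902. In CDGC6 12 rose and 1 fell (median 0.83), where 8.31% of all tested genes were called higher and 10.1% lower. Beside this, 1 of the 10 naive factors was called lower in CDGC6. Zic2 rose there to 27.0 and 28.6 FPKM, Zic5 from 4.32 and 4.18 in control to 12.9 and 12.4, and Fgf8 from 2.04 and 2.48 to 43.0 and 22.1. In Dnd1-KD 9 fell and 2 rose (median -0.31), where 15.5% of all tested genes were called lower and 20.6% higher. Pou3f1 was there at 5.94 and 6.08 FPKM, Etv5 at 63.3 and 52.4 (control 140.4 and 141.2) and Lef1 at 2.76 and 2.69.

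**Figure D5:**
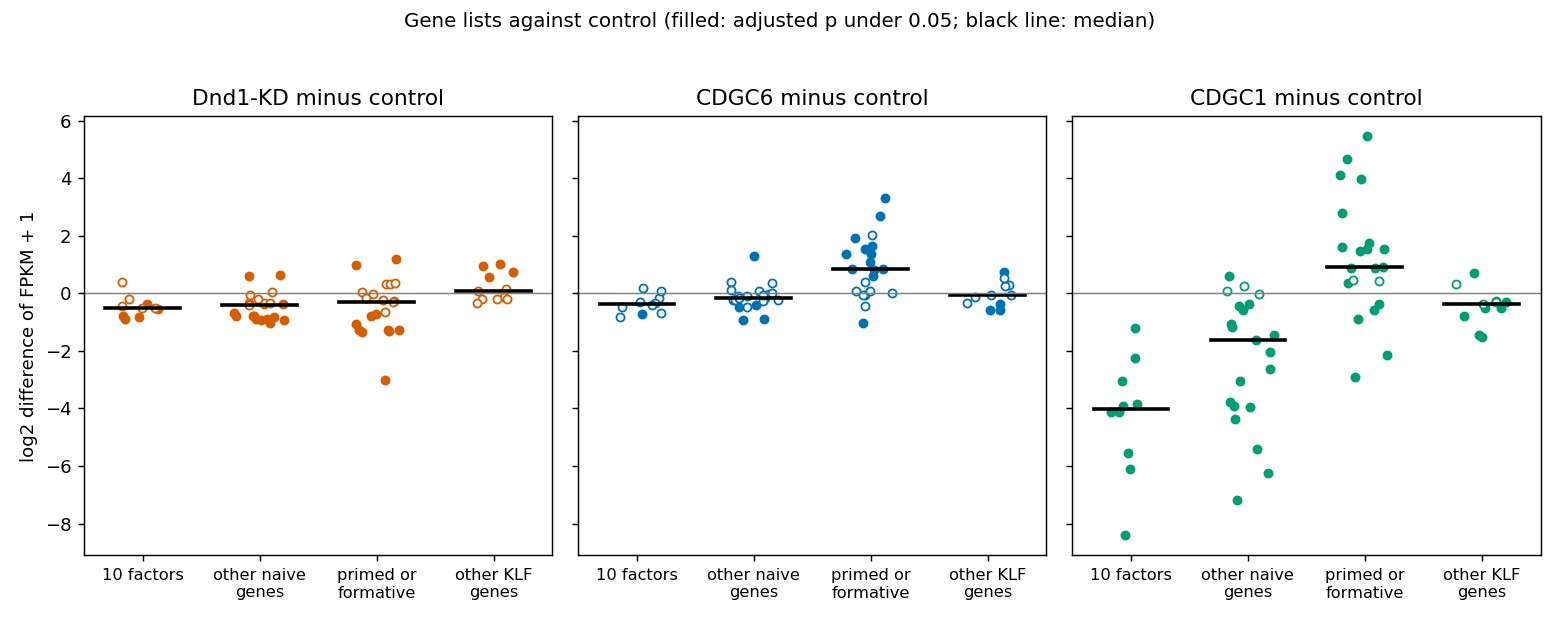
Log2 difference from control of every tested gene in 4 lists (the 10 factors, 21 other naive genes, 21 primed or formative genes and 11 other KLF genes), filled where the adjusted p was under 0.05, with a black line at the median. The medians of the 10 factors and of the primed or formative genes are -4.01 and 0.90 in CDGC1, -0.37 and 0.83 in CDGC6, and -0.51 and -0.31 in Dnd1-KD.

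Among 14 further members of the KLF family, 11 were tested. Over all tested genes, 26.9% were called lower and 23.5% higher in CDGC1, 10.1% and 8.31% in CDGC6, and 15.5% and 20.6% in Dnd1-KD. In CDGC1 7 fell and 1 rose (median -0.38), with Klf9 falling from 46.3 and 45.5 FPKM in control to 15.3 and 16.8, Klf3 by 1.53 and Klf8 by 0.78. In Dnd1-KD 4 of 11 rose, where 20.6% of all tested genes were called higher, and 0 fell (1 was lower at an unadjusted p under 0.05). Klf11 rose from 5.70 and 6.15 FPKM to 12.0 and 13.8, Klf6 from 35.5 and 37.4 to 69.0 and 72.2, and Klf10 by 0.58. In CDGC6 3 fell and 1 rose, led by Klf9 (-0.57), Klf13 (0.74) and Klf6 (-0.58). Of 14 close relatives of the other factors, 7 were tested, so few that their counts say little beside the shares over all genes. In CDGC1 2 fell and 1 rose, with Tbx4 at -0.48, Yy1 at -0.27 and Prdm1, a germ cell repressor, at 0.28. In CDGC6 2 fell and 1 rose, with Prdm1 from 1.69 and 1.66 FPKM in control to 4.67 and 4.97, Yy1 at -0.38, and Esrra, a relative of Esrrb, from 46.5 and 33.1 to 5.53 and 5.58. In Dnd1-KD 1 fell (Prdm1, -0.37) and 2 rose (Tbx4, 0.75, and Tfcp2, 0.75). Esrra varied within groups, from 10.1 to 34.0 FPKM between the CDGC1 libraries.

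For each factor, the 3 genes whose profile over the 8 libraries was most alike were found among 9680 genes, by the root mean square distance of log2(FPKM + 1) from the control mean. Candidates were single genes without a predicted or clone name, with a mean of at least 1 FPKM and no library at exactly 0. Genes listed at 0 in a CDGC1 library, such as Mael, could therefore not be named. The 8 libraries share groups, so this is a description and no test. For Esrrb these were Morc1 (0.25), Dppa4 and Slc38a4, for Nr5a2 Klhl13 (0.19), Dusp27 and Rpl39l, and for Nr0b1 Dppa2 (0.20), Triml2 and Morc1. For Klf2 they were Fbxo15 (0.16), Rpl39l and Lincenc1, for Klf4 Rpl39l (0.18), Lincenc1 and Klhl13, and for Klf5 Gramd2 (0.12), Ston2 and Pcyox1l. Tcl1 (0.18), Pramef12 and Gldc were nearest to Tfcp2l1, Bnipl (0.11), Alpl and Adad2 to Prdm14, and Rps4l (0.35), Tdh and Dnmt3l to Zfp42. Dmrt1 (0.25), a gonadal factor, Jade1 and Ctgf were nearest to Tbx3. Dmrt1 had the group order of Tbx3, at 9.52 and 9.95 FPKM in control, 12.8 and 10.8 in Dnd1-KD, 6.50 and 7.55 in CDGC6, and 0.343 and 0.249 in CDGC1. Among the 10 factors themselves, Klf4 and Nr5a2 were the closest pair (0.25) and Esrrb and Nr0b1 lay at 0.36, while Klf5 lay at 0.62 from its nearest, Prdm14.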

How the data were processed

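RNA-seq was analysed in 8 libraries, 2 per group, with groups taken from the labels. The deposited values are FPKM with an interval, per the file headers in Cufflinks gene tables, 1 per library. In the submitters' processing notes the tools are TopHat2 with Bowtie, and Cufflinks with Cuffdiff, and the build is mm10, with no versions or roles. Symbols joined in any table were treated as 1 unit with FPKM summed, small RNAs were removed, and unnamed entries (76.8% to 85.6% of summed FPKM) were not used. Joint units in the lists were Dnd1 with Hars, Insl3 with Jak3, Klf16 with Abhd17a, Fgf5 with 1700007G11Rik, Cldn6 with Hcfc1r1 and Yy2 with Mbtps2. An exact 0 can be a failed estimate, but those of Prdm14, Nr0b1 and Zfp42 in CDGC1 library 2 carry the status OK. The 11889 units that reached 1 FPKM in 2 or more libraries were tested with limma 3.58.1 (R 4.3.3) on log2(FPKM + 1), with 1 mean per group over 8 libraries, eBayes with trend, and Benjamini-Hochberg adjustment over all units, two-sided, at a threshold of 0.05. The log2(FPKM + 1) scale understates changes of low genes. The fit was tested on simulated data. The members, lists and tests were chosen with earlier results of these data known. Named are all 10 factors, the 3 most alike genes of each, and the 3 list genes with the smallest p in each comparison, beside a few named for their values, as stated there, and some of the marker genes. Alternatives were pseudocount, filter, scaling, fits of the compared groups, a replicate block, a prior without trend, the highest entry per unit, exact zeros as missing, and leaving out each library.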

Additional observations from a re-analysis of the deposited data

Results flagged for a closer look

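The effect against control differed between the derived lines for each of the 10 factors, by the test of CDGC1 against CDGC6 (limma, adjusted over all tested genes). The difference of the effects, CDGC1 minus CDGC6 in log2(FPKM + 1), was -5.81 for Esrrb (adjusted p = 1.04e-05), -3.92 for Tfcp2l1, -3.75 for Klf2, -3.67 for Klf4, -3.38 for Nr5a2, -2.23 for Tbx3 and -0.86 for Klf5 (0.00161). For Zfp42, Nr0b1 and Prdm14, each listed at 0 in 1 CDGC1 library, it was -8.02, -4.85 and -2.40, sizes set by the pseudocount (-11.2, -8.00 and -5.36 with 0.1) and not to be read as folds. The other sizes moved with the pseudocount too, most for Nr5a2, Esrrb and Tbx3. These 3 were at -6.355, -7.89 and -4.32 with 0.1, and at -1.55, -3.75 and -0.87 with 5. Both lines carry the same strain and genotype labels and passage range. Of the marker lists, Ddx4 (-3.52), Mael (-3.02, listed at 0 in both CDGC1 libraries) and Tubb3 (-2.23) were also lower in CDGC1 than in CDGC6. From the same lists Nes (1.01) and the joint Dnd1 and Hars entry (0.30) were higher. Of 6 germ cell units tested 4 were lower and 1 higher, and of 3 neural markers 2 and 1. Of 3 Sertoli and Leydig units 1 was lower and 2 higher, and of 7 fibroblast or feeder markers 1 and 2. Over all 11889 tested genes 24.0% were called lower, and 2733 genes higher. Foxa2 was 8.15 and 38.6 FPKM in CDGC1 and 5.74 and 2.71 in CDGC6, a difference that did not pass (adjusted p = 0.0530). The part of these markers in the difference was not tested.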

How the results depend on the processing

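With 10 factors lower in CDGC1 than in control and than in CDGC6, no alternative changed a call or a direction, except that a filter of 5 FPKM left Prdm14 untested (9 of 9). For Dnd1-KD the number lower, 5, ranged from 0 to 7 and all called genes, 4293, from 1346 to 4891 when 1 library was left out. For CDGC6 the number lower, 1, became 0 with a pseudocount of 0.1, 2 with a pseudocount of 5, 0 without a filter and 3 with exact zeros as missing, and it ranged from 0 to 3 when 1 library was left out, with 379 to 2813 genes called (2189 in all libraries). Deviations of same-numbered libraries from their group means had correlations from -0.0374 to 0.123, the highest between control and Dnd1-KD. Library 1 of these 2 groups also had more entries (32913 and 32513) than library 2 (29452 and 28711). Whether same-numbered libraries share a batch was not tested. With a replicate block the CDGC6 count became 0 (Nr5a2 at an adjusted p of 0.0635), that for Dnd1-KD stayed at 5 and those for CDGC1 at 10, and the genes called in CDGC6 numbered 1613. The split of all called genes moved with scaling. For Dnd1-KD it was 2453 higher and 1840 lower, but 2208 and 2200 with quantile normalisation and 2137 and 2225 with median-ratio scaling, and for CDGC1 against control 2798 and 3195 became 3112 and 2741 with quantile normalisation. Signs reversed only for differences that had not passed, and apart from Klf2 in CDGC6 against Dnd1-KD under quantile normalisation (-0.054) only when 1 library was left out. Over the left-out libraries, Klf2 ranged from -0.42 to 0.032 in Dnd1-KD against control and from -0.35 to 0.025 in CDGC6 against control, and Prdm14 from -0.095 to 0.43 in CDGC6 against control. In CDGC6 against Dnd1-KD the ranges were -0.065 to 0.34 for Esrrb, -0.20 to 0.25 for Klf2, -0.11 to 0.24 for Klf4, -0.12 to 0.16 for Klf5, -0.049 to 0.40 for Nr5a2 and -0.58 to 0.23 for Nr0b1. The cause was not tested. Depth limits the CDGC1 levels of Prdm14, Nr0b1, Zfp42 and Nr5a2, which rest on at most a few fragments.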

Other observations

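Beside the unnamed transcript inside Klf2 in CDGC6, unnamed assembled transcripts lay inside 2 other genes of the 10. In Esrrb they were seen in CDGC6 library 2 at 15.8 FPKM and in Dnd1-KD library 1 at 1.35 FPKM, and in Prdm14 in CDGC6 library 2 at 2.20 FPKM. The part of these entries in the value of the named gene was not tested.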
